A study of Rattus norvegicus with 6 samples.

Results

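The main mature arms of the chromosome 15 miRNA cluster that runs from Mir17 to Mir92a1 and of the miR-106b-25 cluster, together with rno-miR-20b-5p, which shares a seed with several of them, were compared in the hearts of control rats and of rats with chronic colitis. The 10 members were chosen by name, and all 10 were found among the 761 rat miRNAs on the array. Each array held heart total RNA from 1 adult male Sprague Dawley rat, with 3 control rats (animals 9, 10 and 11) and 3 rats given dextran sodium sulfate (DSS, animals 13, 14 and 16). DSS was given at 3% in the drinking water for 5 days, followed by 9 days of plain water, in 4 cycles over 8 weeks, and the study asked which cardiac miRNAs this colitis changed. DSS injures the lining of the colon and is a model of ulcerative colitis, not a treatment directed at the heart. The rats were littermates by the study's account, and the labels do not tie single rats to a litter.

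A miRNA guides the Argonaute protein to messenger RNAs that pair with its seed, bases 2 to 8 of the mature strand, and lowers the output of those messages. The chromosome 15 cluster is transcribed as 1 primary transcript from which several hairpins are cut, is activated by MYC, and is best known for driving proliferation and for its need in heart and lung development. The miR-106b-25 cluster is a paralog carried in an intron of Mcm7, the gene of a subunit of the replicative helicase, and the miR-106a-363 cluster on the X chromosome is a further paralog. In the heart, miR-17 and miR-19 family members are known for their effects on cardiomyocyte proliferation and growth, miR-92a for restraining vessel growth from endothelial cells, and miR-25 for acting on the calcium pump Atp2a2.

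The mature sequences are shown because they divide the members by seed in a way that cuts across the clusters. They are the targets given with the array, 5′ to 3′, with the seed in capitals, and all 10 were identical to the RefSeq entries of the GRCr8 assembly.
rno-miR-17-5p: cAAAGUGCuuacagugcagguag
rno-miR-20a-5p: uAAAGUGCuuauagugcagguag
rno-miR-20b-5p: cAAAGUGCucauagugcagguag
rno-miR-93-5p: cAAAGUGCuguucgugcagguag
rno-miR-106b-5p: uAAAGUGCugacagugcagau
rno-miR-18a-5p: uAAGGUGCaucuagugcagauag
rno-miR-19a-3p: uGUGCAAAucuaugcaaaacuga
rno-miR-19b-3p: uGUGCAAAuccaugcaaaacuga
rno-miR-92a-3p: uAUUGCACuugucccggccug
rno-miR-25-3p: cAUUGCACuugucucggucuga
The first 5 share the miR-17 seed, rno-miR-18a-5p has a seed of its own, the next pair share the miR-19 seed, and the last pair share the miR-92 seed.

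In RefSeq's GRCr8 annotation the 6 hairpins of the chromosome 15 cluster, from Mir17 to Mir92a1, lie within 785 bases at chr15:98587848-98588632 on the plus strand, where no gene other than the miRNA hairpins overlaps them. The 3 hairpins of miR-106b-25 lie within 494 bases at chr12:22156641-22157134 on the minus strand, inside the bounds of Mcm7. The 5 hairpins of miR-106a-363, the source of rno-miR-20b-5p, lie within 871 bases at chrX:137342777-137343647 on the minus strand. The mature sequences of rno-miR-17-5p, rno-miR-19b-3p and rno-miR-92a-3p each have 2 identical copies, 1 in the chromosome 15 cluster and 1 in the X cluster, and a probe reads both copies together. Members were assigned below to the cluster of their name.

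Of the 10 members, 8 were detected on at least 3 of the 6 arrays and were compared with limma, adjusted over all 282 miRNAs that met this rule. Detection on an array required 2 or more of the 4 spots of a probe to exceed the background by over 3 SD of the empty spots. This limit lay between 20 and 59.3 brightness units above background, and on single arrays between 1.27% and 32.1% of the empty spots exceeded it, so that detection of dim members is uncertain. Members rno-miR-17-5p, rno-miR-20a-5p, rno-miR-92a-3p, rno-miR-93-5p and rno-miR-25-3p were detected on all 6 arrays. Members rno-miR-19b-3p and rno-miR-106b-5p were detected on the 3 control arrays and on 1 DSS array, and rno-miR-20b-5p on 3 control and 2 DSS arrays. The detection rule admitted these 3 members through the control group, in which they were brighter. In bulk heart RNA, fewer cells of a type and less of a miRNA per cell cannot be told apart.

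By an adjusted p under 0.05 in limma, 4 of the 8 members were lower in DSS hearts, namely rno-miR-19b-3p, rno-miR-20a-5p, rno-miR-93-5p and rno-miR-106b-5p, where 28.4% of all 282 miRNAs were called lower. None of the 8 was called higher, against 20.9% of all miRNAs, and 4 were not called. Among those called lower, rno-miR-19b-3p and rno-miR-106b-5p met the detection rule through the control group. Over the miRNAs detected on all 6 arrays, 2 of the 5 members were called lower, against 47 of 177. There 1 of the 5, rno-miR-92a-3p, was called higher, against 48 of 177. The median log2 fold change of those 5 was -0.66, beside 0.03 over the 177. The 3 DSS values lay below every control value for 7 of the 8, against 34.8% of all miRNAs. For 1 of the 7, rno-miR-25-3p, the gap was only 0.00035 (log2), which is no separation in practice in these normalized values. The DSS values lay above every control value for rno-miR-92a-3p, against 31.6% of all miRNAs. The median log2 fold change of the 8 was -1.02, beside -0.06 over all 282. These values are relative to the other miRNAs on the array, because cyclic LOWESS sets the bulk of the miRNAs equal between arrays. Scaled to the 11 spike-in probes, which were themselves dimmer on the DSS arrays by 0.95 (log2), the median of all 282 miRNAs became 1.31 and that of the 8 members 0.46, with 2 of the 8 below 0. This scaling shifts every miRNA on an array by the same amount, so that the distance of a member from the median of all is the same as without normalization. The part of RNA input or array sensitivity in this shift was not tested.

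**Figure D1:**
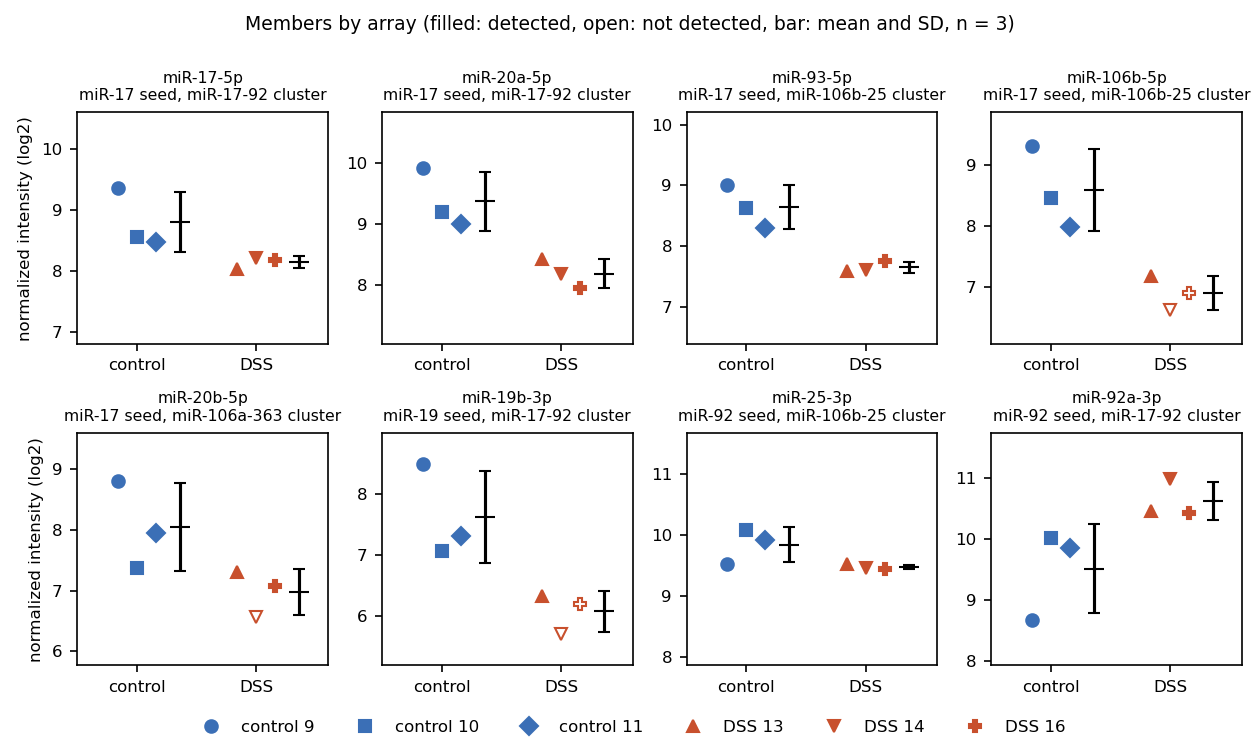
Normalized intensity (log2) of the 8 members compared, with 1 point per array for control rats 9, 10 and 11 (blue) and DSS rats 13, 14 and 16 (orange), open where the member was not detected, and bars for the mean and SD of 3 arrays. All panels span the same number of log2 units. DSS points lie below control points for 7 members, by only 0.00035 for miR-25-3p, and above them for miR-92a-3p, after cyclic LOWESS. Scaled to the spike-in probes, the mean was lower in DSS hearts for 2 of the 8.

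All 5 members of the miR-17 seed group had a lower DSS mean after cyclic LOWESS, as had 147 of all 282 miRNAs. The DSS values lay below every control value for all 5, against 34.8% of all miRNAs. Of the 5, 3 were called lower, against 28.4% of all miRNAs. Members rno-miR-106b-5p and rno-miR-20b-5p met the detection rule through the control group. The median log2 fold change of the 5 was -1.06. With 5S rRNA scaling 4 of the 5 were below 0, and with spike-in scaling 1 of the 5.

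The largest decrease of the group was that of rno-miR-106b-5p, the first arm of the miR-106b-25 cluster, which is known for repressing the cell cycle inhibitor Cdkn1a. Its normalized log2 intensity was 9.32, 8.47 and 7.98 in control rats 9, 10 and 11 and 7.18, 6.62 and 6.91 in DSS rats 13, 14 and 16. Every DSS value was below every control value. The mean fell from 8.59 ± 0.68 to 6.90 ± 0.28 (SD, n = 3 each), a log2 fold change of -1.68 (standard error 0.36, 95% CI -2.54 to -0.83, adjusted p = 0.0161 in limma). DSS rats 14 and 16 were not above the detection limit, so the size of this change depends on how background is treated. It was -2.52 with plain subtraction and -2.77 in the authors' values plus 1. The change also depended on scaling and was -1.14 without normalization. It was not called with 5S rRNA scaling (-0.72, adjusted p = 0.0853 in limma) or spike-in scaling (-0.19, adjusted p = 0.637 in limma). Before normalization the groups were also apart, with a brightness above background of 334, 220.5 and 201.6 in control and 150.4, 46.3 and 44.61 in DSS hearts.

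The chromosome 15 arm rno-miR-20a-5p, a repressor of E2F transcription factors that itself depends on MYC, read 9.91, 9.19 and 9.01 in control hearts. In DSS hearts it read 8.42, 8.19 and 7.95. The groups did not overlap, and the mean fell by 1.19 from 9.37 ± 0.48 to 8.19 ± 0.24 (SD, n = 3 each). This decrease was larger than the SD of either group, and its standard error was 0.28 (adjusted p = 0.0182 in limma). Before normalization its brightness above background was 665.8, 426.5 and 553.7 in control and 494.5, 193.6 and 161.2 in DSS hearts, which overlapped, and without normalization the call was lost (adjusted p = 0.0829). The third called member of the group, rno-miR-93-5p of miR-106b-25, read 9.01, 8.63 and 8.30 in control and 7.59, 7.61 and 7.77 in DSS hearts. The 3 DSS rats were close together, and all were below the lowest control. The log2 fold change of rno-miR-93-5p was -0.99 (standard error 0.22, adjusted p = 0.0170 in limma). Scaled to the spike-in probes, both rno-miR-20a-5p (0.04) and rno-miR-93-5p (0.42) were above 0, and neither was called.

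The other two arms of this seed did not pass the threshold. The arm that names the cluster, rno-miR-17-5p, read 9.36, 8.56 and 8.47 in control hearts and 8.04, 8.21 and 8.18 in DSS hearts. Its values did not overlap after normalization, but the control rats were spread over more than the distance between the groups. The log2 fold change was -0.65 (standard error 0.27, 95% CI -1.30 to -0.01, adjusted p = 0.0803 in limma). Its brightness above background before normalization was 407.4, 240.5 and 348.1 in control and 355.8, 224.5 and 204.2 in DSS hearts, so that the groups overlapped there. The X-linked rno-miR-20b-5p read 8.80, 7.37 and 7.95 in control and 7.31, 6.56 and 7.07 in DSS hearts. Control rat 10 and DSS rat 13 were nearly level for this member. Its log2 fold change was -1.06 (standard error 0.39, 95% CI -1.999 to -0.12, adjusted p = 0.0612 in limma), as large as that of rno-miR-93-5p but with a wider spread between rats.

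The miR-19 seed group had 1 member that could be compared. The miR-19 arms are known as the main drivers of the cluster's effect on cell survival. Normalized log2 intensity of rno-miR-19b-3p was 8.49, 7.07 and 7.30 in control and 6.33, 5.70 and 6.19 in DSS hearts. All DSS values were below all control values, and DSS rats 14 and 16 were not above the detection limit. The mean fell by 1.55 from 7.62 ± 0.76 to 6.07 ± 0.33 (SD, n = 3 each; standard error 0.40, adjusted p = 0.0213 in limma). With 2 DSS arrays at background the size of the change depends on the background correction, and it was -2.22 at a normexp offset of 16, -4.75 with plain subtraction and -4.36 in the authors' values plus 1. In the authors' processed table, on a linear scale after their own background subtraction and LOWESS filter, rno-miR-19b-3p read 347, 61 and 102 in control and 31, 0 and 7 in DSS hearts. Without control rat 9, its brightest array, the log2 fold change was -0.92 and the call was lost (adjusted p = 0.0572 in limma). Without normalization the log2 fold change of rno-miR-19b-3p was -1.07. The call was also lost with 5S rRNA scaling (-0.65, adjusted p = 0.132 in limma) and spike-in scaling (-0.12, adjusted p = 0.793 in limma).

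Members rno-miR-19a-3p and rno-miR-18a-5p were too dim to compare. The probe of rno-miR-19a-3p, whose target differs from that of rno-miR-19b-3p by 1 base, was detected on 0 of 6 arrays, with processed values of 28, 3 and 10 in control and 2, 0 and 1 in DSS hearts. The probe of rno-miR-18a-5p, the only member with the miR-18 seed, was detected on 1 array, that of control rat 9, with processed values of 43, 16 and 21 in control and 10, 4 and 3 in DSS hearts. Both were lower on each DSS array than on each control array after normalization, at levels where the probes were not well above background, and no fold is given.

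Neither of the 2 members with the miR-92 seed was called. Normalized log2 intensity of rno-miR-92a-3p was 8.68, 10.03 and 9.85 in control and 10.46, 11.00 and 10.44 in DSS hearts. Every DSS value was above every control value, and control rat 9 lay far below the other two controls. It averaged 9.52 ± 0.73 in control hearts and 10.63 ± 0.32 after DSS (SD, n = 3 each). The log2 fold change of 1.11 (standard error 0.39, 95% CI 0.19 to 2.03) did not pass the threshold (adjusted p = 0.0501 in limma). It was above 0 in all 27 alternative settings, from 0.56 without control rat 9 to 2.01 with spike-in scaling, and was called in 8 of them. Settings that alter only the filter or the test cannot change the fold change itself. Brightness above background, before normalization, was 315.7, 940.9 and 1110 in control and 2218, 1357 and 1181 in DSS hearts, again without overlap.

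The other miR-92 seed member, rno-miR-25-3p from the end of miR-106b-25, read 9.53, 10.09 and 9.93 in control and 9.53, 9.46 and 9.45 in DSS hearts. Control rat 9 and DSS rat 13 were equal to 2 decimals, and the log2 fold change of -0.37 was not called (standard error 0.20, 95% CI -0.85 to 0.11, adjusted p = 0.157 in limma). It was called lower in 4 of 27 alternatives, at -0.75 with quantile normalization, -0.71 with LOWESS on detected miRNAs, -0.74 in the authors' values plus 32 and -0.47 with array weights, whereas it was 0.08 with 5S rRNA scaling and 0.61 with spike-in scaling. In the authors' processed table rno-miR-25-3p read 853, 1174 and 986 in control and 657, 447 and 667 in DSS hearts, without overlap. Its brightness above background before normalization overlapped, at 581.5, 947.2 and 1167 in control and 1145, 450.9 and 567.8 in DSS hearts. A further miRNA with this seed on the array, rno-miR-92b-3p, comes from a hairpin of its own on chromosome 2. It differs from rno-miR-92a-3p by 3 edits.
rno-miR-92b-3p: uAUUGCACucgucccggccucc
It read 8.02, 9.15 and 9.22 in control and 9.83, 9.57 and 9.73 in DSS hearts. As for rno-miR-92a-3p, the DSS values were all higher and control rat 9 was the lowest. The log2 fold change of rno-miR-92b-3p was 0.91 (standard error 0.34, adjusted p = 0.0623 in limma). It was above 0 in all 27 alternative settings, of which those that alter only the filter or test cannot change it. How much signal probes with near-identical targets share was not tested.

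**Figure D2:**
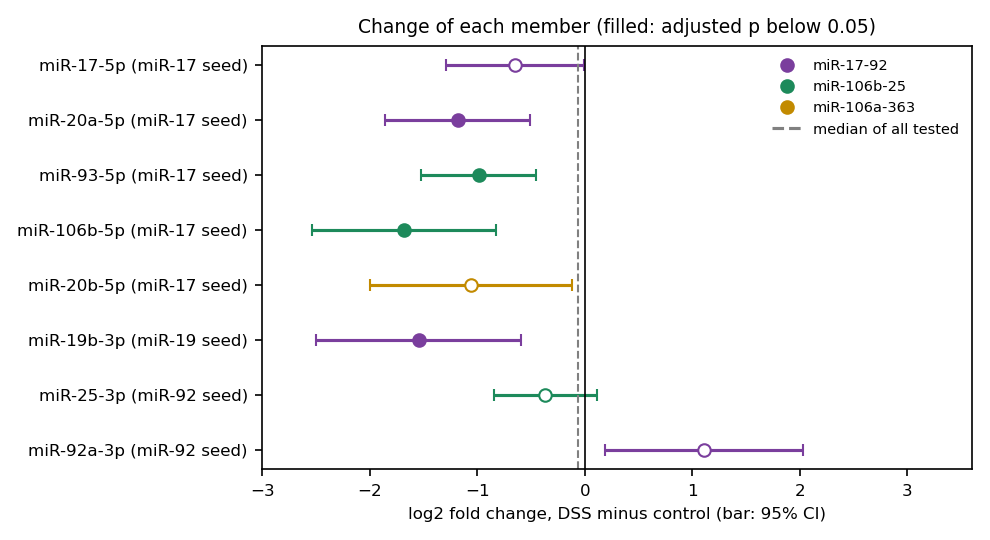
Log2 fold change (DSS minus control) of the 8 members compared, with 95% confidence intervals from limma, ordered by seed and coloured by cluster, filled where the adjusted p was below 0.05. The grey line marks the median of all 282 miRNAs, -0.06. The miR-17 and miR-19 seed members lie to the left of it and miR-92a-3p to the right, after cyclic LOWESS. With spike-in scaling that median was 1.31 and all but miR-106b-5p and miR-19b-3p were above 0.

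By cluster, the compared arms of the chromosome 15 cluster had changes on both sides of 0, while those of miR-106b-25 all had lower means after cyclic LOWESS. Of all 282 miRNAs, 147 had a lower mean and 28.4% were called lower. The probes of rno-miR-17-5p, rno-miR-19b-3p and rno-miR-92a-3p also read the copies on the X chromosome, so their values are not of the chromosome 15 cluster alone. Of the 4 chromosome 15 arms compared, rno-miR-19b-3p and rno-miR-20a-5p were called lower and rno-miR-17-5p and rno-miR-92a-3p were not called, with log2 fold changes from -1.55 to 1.11 and a median of -0.92. Of the 3 miR-106b-25 arms, rno-miR-106b-5p and rno-miR-93-5p were called lower and rno-miR-25-3p was not, with a range from -1.68 to -0.37 and a median of -0.99. Under spike-in scaling the medians were 0.36 and 0.42.

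Differences between members on the same array do not depend on a scaling factor shared by the array. They describe how far the arms of a cluster or seed group moved apart. The values below were taken after cyclic LOWESS, which can correct bright and dim members by different amounts, so they still depend on that normalization. These differences compare changes, not levels, because probes differ in brightness for the same amount of RNA. All 18 pairs within a cluster or a seed group were computed, each with a 2-sided exact permutation test. The 6 arrays allow 20 arrangements, so that p cannot go below 0.1 and no pair can pass 0.05.

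Within the chromosome 15 cluster, rno-miR-19b-3p minus rno-miR-92a-3p was -0.20, -2.96 and -2.55 in control and -4.14, -5.30 and -4.25 in DSS hearts. The groups were apart, and their means differed by 2.66 (exact p = 0.1, the smallest possible, 0.15 after adjustment over the 18 pairs). Control rat 9 stood well above the other controls. The difference was -1.48 without control rat 9 and -5.64 with plain subtraction, and it rests on rno-miR-19b-3p, which was not detected on 2 of the 3 DSS arrays. For rno-miR-20a-5p minus rno-miR-92a-3p the difference between groups was -2.29, again without overlap. Over the alternatives that could change it, this difference lay between -2.63 and -1.50. Within the miR-92 seed, rno-miR-92a-3p minus rno-miR-25-3p was -0.84, -0.07 and -0.07 in control and 0.94, 1.53 and 0.98 in DSS hearts. This was a shift of 1.48 with the groups apart (exact permutation p = 0.1, 0.15 adjusted). Over the alternatives that could change it, the shift lay between 1.13 and 1.63. Settings that alter only the filter, test or array weights cannot change a difference within an array. All scalings by 1 factor per array gave the same shift as no normalization, 1.4.

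Within miR-106b-25, rno-miR-106b-5p minus rno-miR-25-3p moved from -1.26 ± 0.92 to -2.58 ± 0.25, and rno-miR-93-5p minus rno-miR-106b-5p from 0.06 ± 0.32 to 0.75 ± 0.30 (SD, n = 3 each). Both pairs were apart between groups. The second was so only narrowly, with a highest control of 0.31 and a lowest DSS value of 0.41. All pairs with rno-miR-106b-5p rest on a member that was not detected in DSS rats 14 and 16. Without normalization the log2 fold changes of rno-miR-106b-5p, rno-miR-93-5p and rno-miR-25-3p were -1.14, -0.53 and -0.34, nearer together than after cyclic LOWESS. The pairs of rno-miR-17-5p with rno-miR-20a-5p, rno-miR-93-5p and rno-miR-106b-5p were also apart, as was rno-miR-20a-5p minus rno-miR-106b-5p. Their group means differed by 0.33 to 1.03. The pairs of rno-miR-20b-5p with the other miR-17 seed arms overlapped, as did rno-miR-20a-5p minus rno-miR-93-5p. The difference rno-miR-20a-5p minus rno-miR-20b-5p was 1.33 ± 0.43 in control and 1.21 ± 0.38 in DSS hearts (SD, n = 3 each; exact permutation p = 0.7), and that of rno-miR-20b-5p and rno-miR-93-5p was -0.61 ± 0.57 and -0.68 ± 0.38 (exact permutation p = 0.9). These arms come from different chromosomes. An overlap at 3 rats a group does not show that these arms moved alike.

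**Figure D3:**
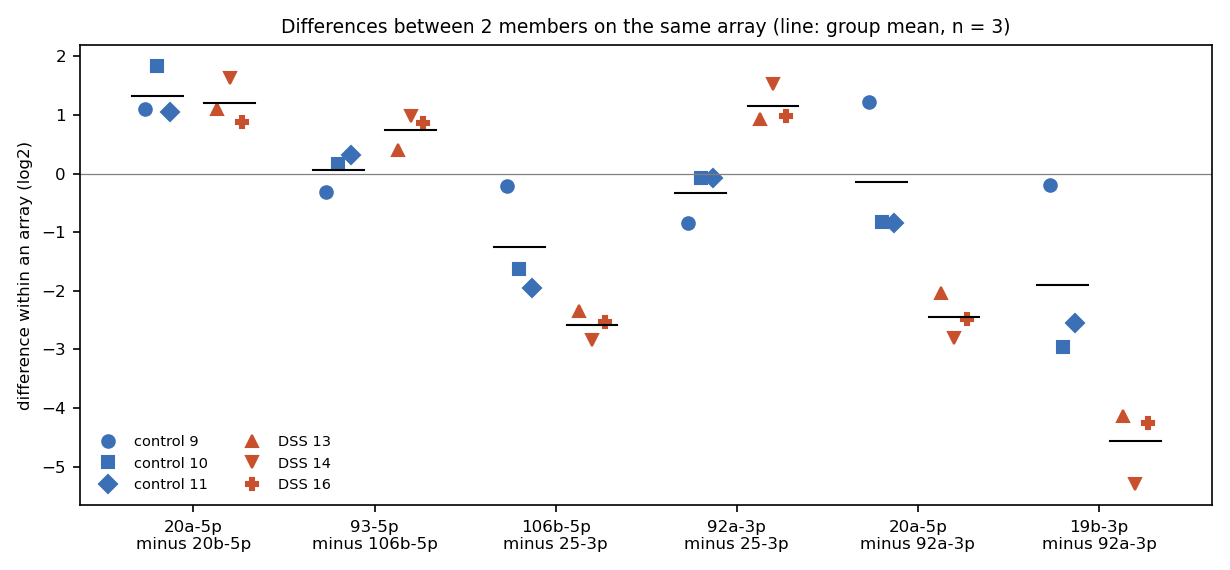
Log2 difference between 2 members on the same array for 6 of the 18 pairs, after cyclic LOWESS. Control rats are in blue and DSS rats in orange, with a line at each group mean of 3 arrays. The 3 pairs with miR-92a-3p are apart between groups, with group means that differ by 1.48 to 2.66. Both miR-106b-5p pairs are also apart, while 20a-5p minus 20b-5p overlaps. Neither miR-106b-5p nor miR-19b-3p was detected on the arrays of DSS rats 14 and 16.

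The position of single rats recurred across members. Control rat 9 was the highest control for the 6 members of the miR-17 and miR-19 seeds and the lowest control for rno-miR-92a-3p and rno-miR-25-3p. The SD of the 4 repeated spots of a member on an array averaged 0.07 to 0.14 (log2). The SD between rats of a group was 0.21 to 0.59, so that spot error was the smaller part. Each rat had 1 array, so that differences between rats and between arrays cannot be told apart. Among the DSS rats, DSS rat 13 was the highest for 5 members. Without control rat 9 the median of the 8 members was -0.78, and 3 of them were called lower.

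The calls depended on single DSS arrays as well. Without DSS rat 14 only rno-miR-106b-5p was called, and without DSS rat 16 none of the 8 was (smallest adjusted p over all 282 miRNAs 0.0608 in limma), although 4 of the 8 had an unadjusted p under 0.05. No miRNA of the 282 was called without DSS rat 16, where 131 had an unadjusted p under 0.05. The direction of each member was unchanged with any 1 array left out.

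Base composition was a feature that the choice by name did not use. The proportion of G and C ranged from 39.1% in rno-miR-19b-3p and rno-miR-20a-5p to 57.1% in rno-miR-92a-3p. Members poorer in G and C tended to have the larger decreases, apart from rno-miR-93-5p with 52.2%, and across the 8 members Pearson's r between the G and C share and the log2 fold change was 0.82 and Spearman's rho 0.83. Members share arrays and several share nearly the same sequence, so this is a description. Over all 282 miRNAs r was 0.06 and rho 0.11. Of the 57 miRNAs with up to 40% G and C, 35.1% were called lower and 35.1% higher, of the 122 with over 40% to 50%, which hold 4 of the 8 members, 33.6% were called lower and 18% higher, and of the 103 with over 50%, 18.4% were called lower and 16.5% higher. The part of base composition in the members' values was not tested.

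**Figure D4:**
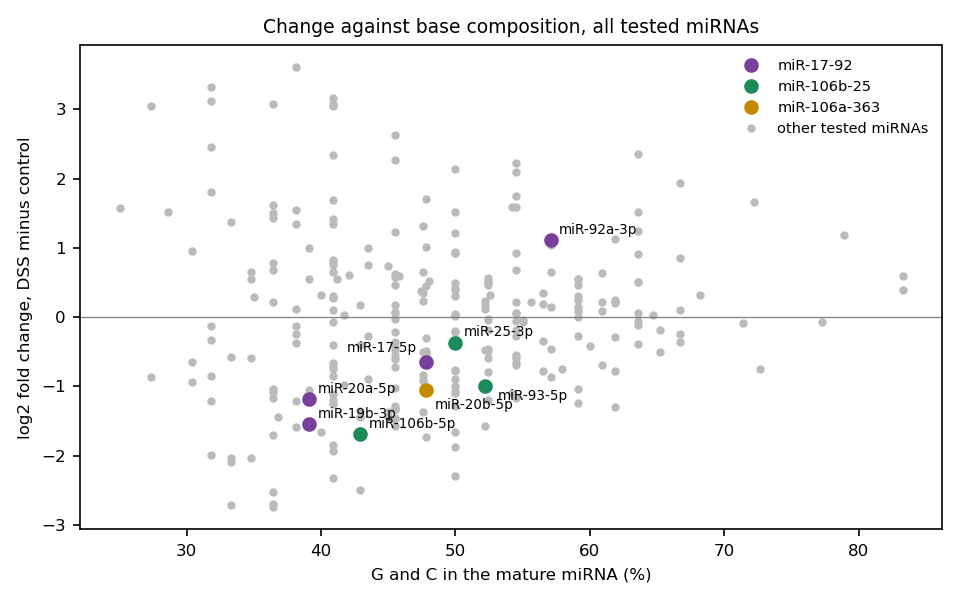
Log2 fold change (DSS minus control, cyclic LOWESS) against the percent of G and C in the mature miRNA, with the 8 members coloured by cluster and the other tested miRNAs in grey. The members range from -1.68 (miR-106b-5p, 42.9%) to 1.11 (miR-92a-3p, 57.1%). Those at 39.1% lie at -1.55 and -1.19, and miR-93-5p with 52.2% at -0.99. The 282 miRNAs together show r = 0.06. With spike-in scaling 6 of the 8 members lie above 0.

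The other arms of the 3 clusters and the other miRNAs with a member's seed made up 17 probes. Of these, rno-miR-92b-3p and rno-miR-93-3p were detected on at least 3 arrays, and neither was called. The passenger arm rno-miR-93-3p read 6.77, 6.95 and 7.21 in control and 6.81, 6.66 and 6.44 in DSS hearts, which overlapped. Its log2 fold change was -0.34 (standard error 0.20, adjusted p = 0.182 in limma), and it was 0.11 without normalization, 0.53 with 5S rRNA scaling and 1.06 with spike-in scaling. The remaining 15 probes were detected on 2 arrays or fewer, among them both arms of miR-363, so that nothing can be said of the opposite strands of rno-miR-17-5p, rno-miR-19b-3p, rno-miR-20a-5p or rno-miR-92a-3p.

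The 5 miRNAs outside the list whose profile over the 6 arrays was nearest to the members' mean profile were rno-miR-193b-3p, rno-miR-28-3p, rno-miR-30c-5p, rno-miR-140-3p and rno-miR-145-5p. Likeness was the root mean square difference of log2 values centred on each miRNA's mean, among 172 candidates detected on all arrays, and it was 0.08, 0.10, 0.13, 0.13 and 0.15 for these 5. The members themselves lay between 0.15 (rno-miR-93-5p) and 1.14 (rno-miR-92a-3p) from their own mean profile. Because these 5 were picked for likeness to a profile that is lower on every DSS array, their direction follows from the choice. Their log2 fold changes were -0.75, -0.76, -0.90, -0.86 and -0.98 in that order. With spike-in scaling rno-miR-193b-3p, rno-miR-28-3p and rno-miR-140-3p were above 0.

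Markers of cell types in the heart moved between the groups beside the members. The muscle miRNAs miR-1-3p, miR-133a-3p, miR-133b-3p and miR-499-5p were detected on all 6 arrays, whereas miR-208a-3p was detected on 1 array and miR-208b-3p on 0. Of these, miR-1-3p was called higher (3.11) and miR-499-5p lower (-2.09), while miR-133a-3p (-0.67) and miR-133b-3p (-0.34) were not called, and the summed levels overlapped, at 41556 to 64817 in control and 38959 to 94832 in DSS hearts. Of the endothelial list, miR-126a-3p was called lower (log2 fold change -1.28) and miR-126a-5p was not called, with summed levels of 12259 to 20280 in control and 4694 to 10308 in DSS hearts. Of the 5 white blood cell miRNAs, miR-150-5p (1.59) and miR-155-5p (0.65) were called higher and miR-223-3p lower (-1.35), with sums of 2321 to 4950 in control and 8610 to 10068 in DSS hearts. The sum is mostly miR-150-5p. The probe of miR-155-5p was detected on 0 control and 3 DSS arrays and so entered the test through the DSS group, and miR-142-3p and miR-142-5p, detected on 1 array each, were lower on every DSS array. Of the 4 red blood cell miRNAs, miR-451-5p (-2.53) and miR-144-5p (-0.94) were called lower and miR-486 (2.36) higher, and their sums overlapped, at 3078 to 6392 in control and 4033 to 5841 in DSS hearts. Red blood cells also carry miR-92a and miR-25. The part of these cells in the members' values was not tested.

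**Figure D5:**
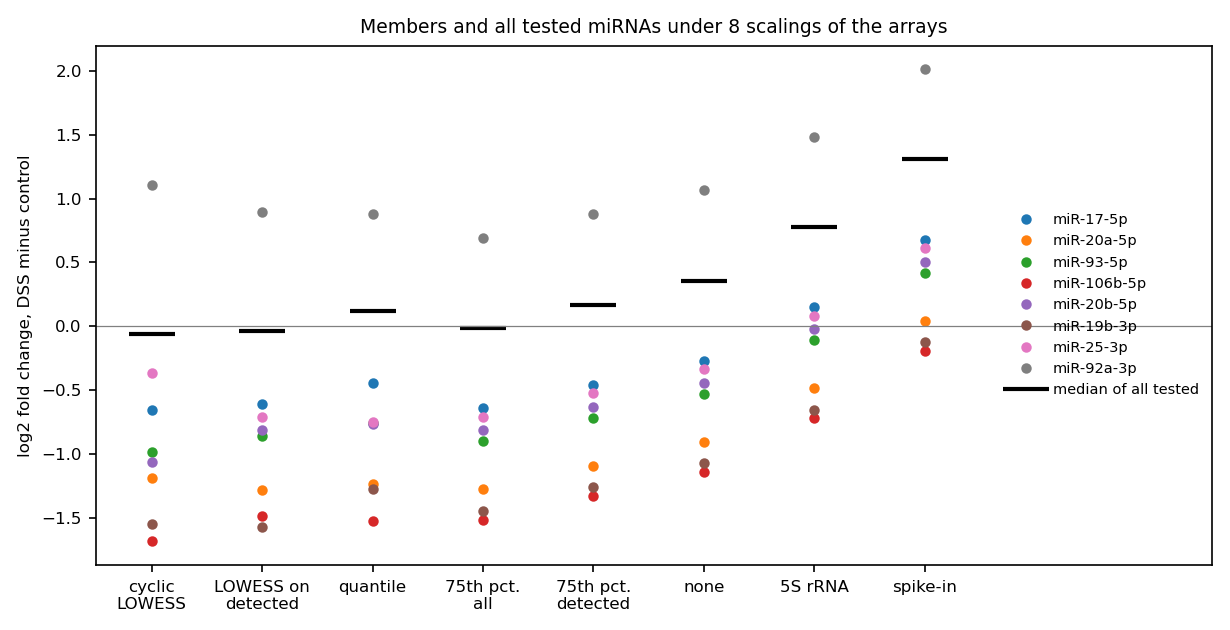
Log2 fold change (DSS minus control) of the 8 members (coloured points) and the median of all 282 miRNAs (black bar) under 8 ways of scaling the arrays. The bar rises from -0.06 with cyclic LOWESS to 1.31 with spike-in scaling. Scalings by 1 factor per array shift points and bar together, and 6 members are above 0 with spike-in scaling and 3 with 5S rRNA scaling.

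Scaling by 1 factor per array cannot change the distance of a member from the median of all miRNAs, so that only the LOWESS and quantile scalings bear on it. Relative to the median of all miRNAs, rno-miR-106b-5p lay between -1.64 and -1.45 over the 8 scalings plotted, rno-miR-19b-3p between -1.53 and -1.39 and rno-miR-20a-5p between -1.35 and -1.12. The smallest shifts below that median were those of rno-miR-17-5p, between -0.63 and -0.57, and rno-miR-25-3p, between -0.86 and -0.30. For rno-miR-92a-3p the value was between 0.71 and 1.17 above it.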

How the data were processed

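Heart miRNA was measured on 6 one-colour arrays, 3 control and 3 DSS, grouped by their labels. The authors deposited scanner intensity per spot (median and SD of pixel brightness, background included, not normalized) and 1 table of processed intensity, in whole numbers on a linear scale after background subtraction and a LOWESS filter. How repeated spots were combined is not given in the sources used here. In R 4.3.3 with limma 3.58.1, background was removed with normexp (offset 50), log2 values were averaged over each probe's 4 spots, and cyclic LOWESS with a span of 0.7 and 3 iterations was fitted over the 761 miRNA probes. These log2 values were computed from the deposited intensity values. For detection, background was taken as the median brightness among the dimmest 25% of spots, and a spot also needed a CV under 0.5. The 282 miRNAs found on 3 or more arrays entered lmFit and eBayes, with Benjamini-Hochberg adjustment (threshold 0.05), and 479 did not. The number of arrays limits the precision.

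The members and lists were chosen with earlier results of these data known. The text names every member, the other arms and seed relatives that passed detection, and the 5 other miRNAs nearest in profile. Sequences and positions were read from the array's target column and RefSeq (GRCr8) with Python 3.11.15, and figures were drawn with matplotlib 3.10.9. The fit was tested on simulated arrays, with independent noise for each miRNA and known changes in both directions. They held no shift in miRNA signal shared by an array, so that the simulation does not bear on the choice of scaling. The 28 alternatives covered background, scaling, the authors' values, detection, spot summary, test and each array left out. Of these, 27 were run. A block for slide or scan could not be, because the files give neither.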

Additional observations from a re-analysis of the deposited data

How the results depend on the processing

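No paired analysis was possible because control and DSS rats carry different numbers in the labels. The number of members called lower, 4 of 8, became 2 without normalization and 0 with spike-in or 5S rRNA scaling. By the methods' t-test with Benjamini-Hochberg adjustment it was 0. That test was run on the log2 values computed here, not on the study's processed values, so it does not repeat the study's own test. In it 4 of 8 had an unadjusted p under 0.05, the threshold that the study states. These were rno-miR-19b-3p, rno-miR-20a-5p, rno-miR-93-5p and rno-miR-106b-5p. The number called lower was 2 of the 5 detected on all 6 arrays, 2 of 10 with no filter and 0 to 5 with 1 array left out. It rose to 6 of 8 in the authors' values plus 32 and with array weights, and to 5 with quantile normalization, LOWESS on detected miRNAs and limma's trend. The number called higher, 0, became 1 (rno-miR-92a-3p) with spike-in scaling, with 5S rRNA scaling, over miRNAs detected on all 6 arrays, at a detection limit of 5 SD, with the limit counted from the empty spots, with the median of spots and with array weights, a fit that stopped before convergence, and 0 to 1 with 1 array left out. The members' median of -1.02 was -1.36 with plain subtraction, -0.49 without normalization, -0.67 with the 75th percentile of detected miRNAs, -0.064 with 5S rRNA scaling, -1.58 in the authors' values plus 1 and -0.66 over miRNAs detected on all 6 arrays, and it reversed to 0.46 with spike-in scaling. For the chromosome 15 cluster (-0.92) the median was 0.36 with spike-in scaling, -0.17 with 5S rRNA scaling, -1.44 and -1.31 in the authors' values plus 1 and plus 32, and -0.47 with no filter. For miR-106b-25 (-0.99) it was 0.42 and -0.11 with spike-in and 5S rRNA scaling, -1.27 with plain subtraction, -0.76 with quantile normalization, -0.53 without normalization, -0.72 with the 75th percentile of detected miRNAs, -1.55 and -1.35 in the authors' values, -0.68 over miRNAs detected on all 6 arrays, and -1.24 to -0.83 with 1 array left out. For the miR-17 seed (-1.06) it was 0.42 and -0.11 with spike-in and 5S rRNA scaling, -1.44 with plain subtraction, -0.53 without normalization and -1.61 in the authors' values plus 1. With spike-in scaling the log2 fold change reversed to 0.68 for rno-miR-17-5p, 0.044 for rno-miR-20a-5p, 0.51 for rno-miR-20b-5p, 0.42 for rno-miR-93-5p, 0.61 for rno-miR-25-3p, 1.06 for rno-miR-93-3p, 0.75 for rno-miR-193b-3p, 0.81 for rno-miR-28-3p and 0.49 for rno-miR-140-3p. With 5S rRNA scaling it reversed to 0.15 for rno-miR-17-5p, 0.084 for rno-miR-25-3p, 0.53 for rno-miR-93-3p, 0.22 for rno-miR-193b-3p and 0.28 for rno-miR-28-3p, and without normalization to 0.11 for rno-miR-93-3p. The cause was not tested. With no filter, rno-miR-18a-5p and rno-miR-19a-3p were at -0.29 and -0.28 (adjusted p = 0.0957 and 0.121 in limma), close to the background, where normexp with its offset narrows a fold.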
